A study of Mus musculus with 23 samples.

Results

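Glutamate and GABA receptor subunits are the proteins through which neurons sense the main excitatory and the main inhibitory transmitter of the brain. The genes described here are all protein-coding genes of the count tables whose mouse symbol names a subunit of an AMPA (Gria), NMDA (Grin), kainate (Grik), delta (Grid) or metabotropic (Grm) glutamate receptor, or of a GABA-A (Gabr) or GABA-B (Gabbr) receptor. That rule found 47 of the 55487 gene IDs in the tables, 26 for glutamate and 21 for GABA, and it used no measured value. RNA was sequenced from hippocampal cells of C57Bl/6 mice taken at postnatal day 1, of which 200000 were seeded per microfluidic chamber, a device whose narrow channels let axons reach a compartment apart from the cell bodies. Every group, controls included, carried magnetic nanoparticles (MNPs, 5 µg/ml). Stretched groups were held between DIV 1 and DIV 6 (days in vitro) in a magnet whose field changed by 50 T/m, which draws the particles and the neurites that hold them; for control groups this gradient was null. The 23 libraries were 6 of control soma, 6 of stretched soma, 5 of control axon and 6 of stretched axon. Soma libraries stand for total culture from the somatodendritic side, and axonal libraries are labelled as a pure axonal preparation. No culture without MNPs was compared here, so control and stretched differ by the gradient alone as labelled. The labels do not say that replicates came from separate cultures or animals, so p-values measure only the spread between these samples, which may be technical.

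Depth ran from 16369153 to 43048953 counts per library, which makes the floor of 3 counts worth between 0.0697 and 0.183 CPM (counts scaled to library size), counting error alone. The soma libraries held counts for 39 to 45 of the 47 receptor genes and the axonal libraries for 7 to 27, and these genes took up 0.333% to 0.471% of the counts in somata and 0.0247% to 0.287% in axons. The neuronal marker list summed to between 5417 and 6827 CPM in the somata and to between 1283 and 4385 CPM in the axons. The astrocyte list summed to between 5120.5 and 14076 CPM in the somata and to between 4651 and 25629 CPM in the axons. Of 8 transcripts fixed as nuclear or somatodendritic, which a pure axon should lack, the axonal libraries held counts for 3 to 8, with sums of 1029 to 3292 CPM beside 1971 to 3340 CPM in somata. Of the oligodendrocyte list, Sox10 had no count in any soma library, and P2ry12 (microglia) and Cldn5 and Kdr (endothelium) had none in any axonal library. Other genes of these lists were counted in axons. The microglial list summed to 0 to 494 CPM in axons, beside 27.9 to 75.7 CPM in somata. For the endothelial and mural list the sums were 0.0441 to 1951 CPM in axons and 138 to 251 CPM in somata. The oligodendrocyte list had 0 to 438 CPM in axons and 35.3 to 71.2 CPM in somata. The part of these other cells and compartments in the results below was not tested, and in such bulk samples fewer cells of a type and less RNA per cell cannot be told apart.

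AMPA receptors carry the fast part of excitatory transmission, and the edited subunit encoded by Gria2 makes their channel nearly impermeable to calcium. NMDA receptors join an obligatory Grin1 subunit with Grin2 or Grin3 subunits, of which Grin2b prevails early in forebrain development while Grin2a gains ground with maturation. Kainate receptors tune release and excitability, delta receptors bind trans-synaptic organizers, and metabotropic receptors signal through G proteins. GABA-A receptors are chloride channels assembled mostly from alpha, beta and gamma subunits, with delta-containing forms outside synapses. GABA-B receptors are G-protein-coupled pairs of a ligand-binding subunit (Gabbr1) and a coupling subunit (Gabbr2).

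The promoters of 4 members are shown as examples, picked with their values known. Gria2 and Gabbr1 were called higher in stretched somata, Gabra2 separated the soma libraries by something other than stretch, and Gabra6 had almost no counts. Members called lower, and called members with larger fold changes, are not shown. Each line gives the 250 bases before the annotated start on the gene's own strand, 5′ to 3′, from RefSeq (GRCm38.p6), with CG dinucleotides (CpG) in capitals.
Gria2, chr3:80802836-80803085, minus strand: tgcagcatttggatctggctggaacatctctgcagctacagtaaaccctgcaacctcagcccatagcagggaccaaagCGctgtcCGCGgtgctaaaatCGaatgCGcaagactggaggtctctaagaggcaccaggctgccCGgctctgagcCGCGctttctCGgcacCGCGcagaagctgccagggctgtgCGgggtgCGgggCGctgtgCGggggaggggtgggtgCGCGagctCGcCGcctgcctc
Gabbr1, chr17:37045716-37045965, plus strand: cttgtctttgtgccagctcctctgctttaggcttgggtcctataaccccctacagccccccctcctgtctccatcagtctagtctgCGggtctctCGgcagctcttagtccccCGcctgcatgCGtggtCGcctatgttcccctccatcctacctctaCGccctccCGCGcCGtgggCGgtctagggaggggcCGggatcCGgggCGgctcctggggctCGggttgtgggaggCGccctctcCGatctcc
Gabra2, chr5:71095850-71096099, minus strand: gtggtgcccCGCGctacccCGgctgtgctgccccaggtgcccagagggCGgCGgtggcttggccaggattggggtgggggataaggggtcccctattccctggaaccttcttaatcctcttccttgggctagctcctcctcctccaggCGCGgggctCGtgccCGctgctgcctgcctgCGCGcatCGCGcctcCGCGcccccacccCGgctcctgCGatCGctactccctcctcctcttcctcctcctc
Gabra6, chr11:42321073-42321322, minus strand: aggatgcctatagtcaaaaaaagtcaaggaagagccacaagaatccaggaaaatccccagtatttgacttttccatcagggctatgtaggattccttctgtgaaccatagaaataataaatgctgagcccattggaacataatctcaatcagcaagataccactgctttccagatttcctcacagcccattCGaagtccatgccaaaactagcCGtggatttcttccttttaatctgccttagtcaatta
These stretches hold 19 CpG for Gria2, 16 for Gabbr1, 18 for Gabra2 and 2 for Gabra6. RefSeq windows, here 300 bases running from 250 before to 50 after a start, were matched for 32 of the 47 members. The 21 matched members with at least 1 CPM in somata had a median of 18 CpG in the window (0 to 50, the 0 belonging to Gabra3), the 11 below 1 CPM had a median of 4 (2 to 24), and all 32851 windows had a median of 7. For members with 2 or 3 windows the one with most CpG was taken (for Grm8, 33 rather than 2). The 18 is therefore not like for like with the median of all windows. The letters GGGCGG, searched on both strands, were in 48.7% of the 39 member windows and in 35.7% of all windows. TATAAA, searched the same way, was in 10.3% of member windows and in 13.6% of all.

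To set genes of unlike length side by side, levels are given here as CPM per kilobase of the longest annotated transcript, scaled by TMM (edgeR's trimmed mean of M values) and averaged over the 12 soma libraries. That counts rise with transcript length is assumed, and the order depends on it. By plain CPM, Gria2 (645) and Gabra2 (435) lay above Gabra5 (271). The most abundant subunit genes on this scale were Gabra5 (102 CPM per kb) and Gria1 (94.1), followed by Gabra2 (74.2), Gria2 (62.1), Gabbr1 (48.5) and Grm5 (46.4). Gabra5 encodes an alpha subunit known for hippocampal extrasynaptic receptors, and Grm5 a postsynaptic group I metabotropic receptor. At the other end, Gabra6, a subunit of cerebellar granule cells, averaged 0.00108 CPM per kb. The plot of levels by role class shows some classes led by 1 or 2 members and others shared more evenly. Within the AMPA class Gria1 made up 55.1% ± 1.91 (SD, n = 6) of the per-kb level in control somata and Gria2 34.6% ± 2.48. Grm7 held 90.6% ± 3.29 of group III and Gabbr1 82.2% ± 3.60 of the GABA-B pair. The NMDA class was more evenly shared per kb, with Grin1 at 41.3% ± 4.62, Grin2b at 35.6% ± 3.73 and Grin2a at 15.5% ± 1.63. These shares depend on the length scale too. By plain CPM in control somata, Grin2b (273) lay above Grin2a (72.7) and Grin1 (56.0), and Gria2 (550) above Gria1 (468).

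**Figure D1:**
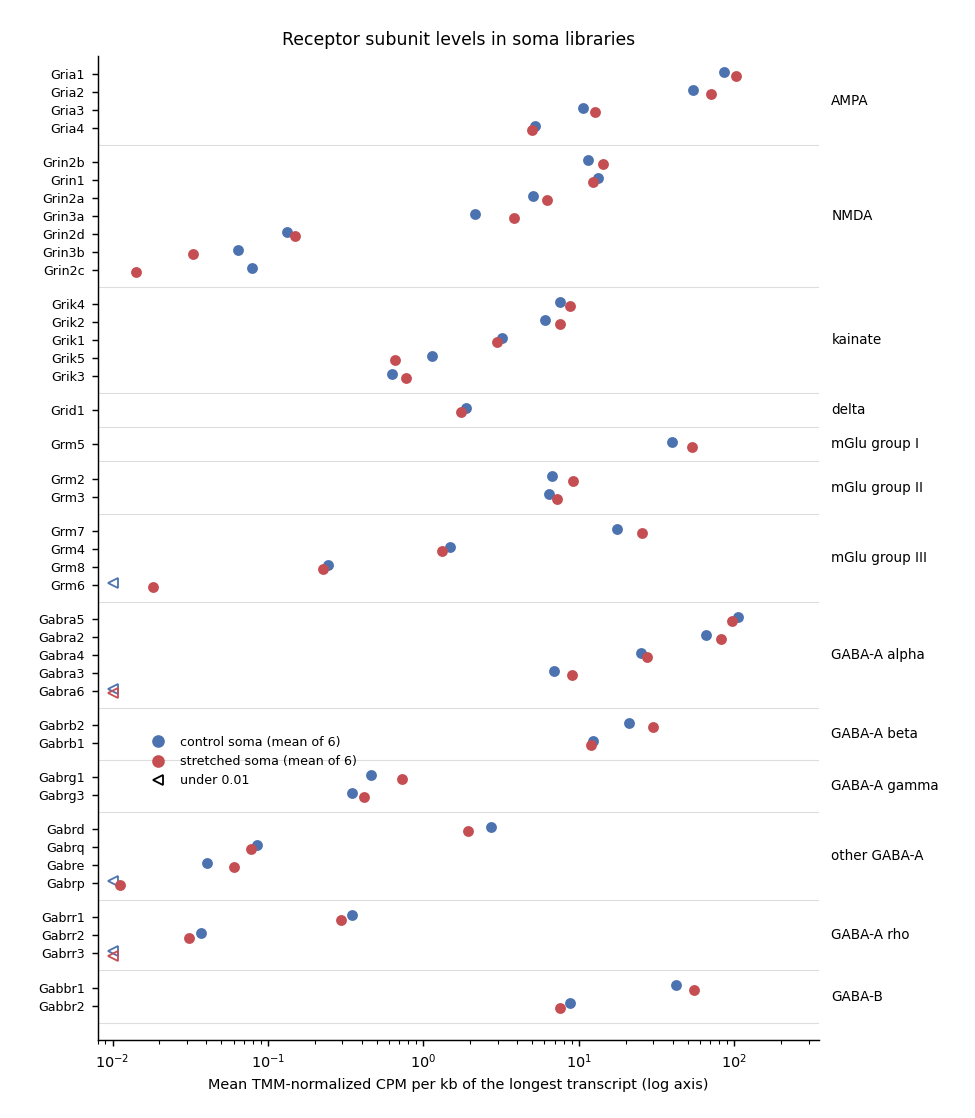
Mean level in somata (TMM-scaled CPM per kilobase, log axis) of 42 of the 47 receptor subunit genes, grouped by role class, with blue for the 6 control and red for the 6 stretched soma libraries. Open triangles stand for means under 0.01. On this scale the AMPA and GABA-B classes are led by 1 or 2 members while the NMDA class is more even. Gabra5 (102) and Gria1 (94.1) are highest over the 12 libraries.

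The question of the soma comparison is whether receptor subunit messages differ after stretch on the cell body side. Of the 38 members with enough counts to test, 10 were higher in the stretched somata, 2 were lower and 26 did not pass (edgeR's quasi-likelihood test, Benjamini-Hochberg adjusted p under 0.05). Among those called higher were Gria1, Gria2, Grin3a, Grm7, Gabra3, Gabrb2 and Gabbr1, and those called lower were Grik5 and Gabrd. The background was high: 25.1% of the 15632 genes tested were called, 11.2% higher and 13.9% lower. Against that, 26.3% of the members were called higher and 5.26% lower. Their median log2 fold change was 0.26, compared with -0.03 for all tested genes, and 25 of 38 were above 0. The members not tested for low counts were Gabra6, Gabre, Gabrp, Gabrq, Gabrr2, Gabrr3, Grin2c, Grin3b and Grm6.

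Calls came from both transmitter systems: 5 higher and 1 lower of 23 tested glutamate receptor genes, and 5 higher and 1 lower of 15 tested GABA receptor genes. Beside these stand 11.2% higher and 13.9% lower of all tested genes, and the 2 systems were not tested against each other. The soma libraries also fall into sets A and B, which differ in Eif2s3y, a Y-linked gene, and are described below. With the set as a covariate, 18 of 38 members passed, 16 higher and 2 lower, beside 16% of all 15632 genes higher and 17.9% lower. There 11 of the 12 calls remained, Gabra2, Gria3, Grik2, Grin2a, Grin2b, Grm2 and Grm5 passed in addition, and Grin3a no longer did (edgeR adjusted p = 0.0696).

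Among the AMPA subunits, Gria2 ranged from 520.0 to 729 CPM in the control somata (median 524) and from 657 to 804 CPM in the stretched ones (median 739). Gria2 was higher after stretch (log2 fold change 0.39, SE 0.09, edgeR adjusted p = 0.0104), with 1 control library above the lowest stretched ones. Gria1, a subunit tied to receptor insertion during synaptic potentiation, ranged from 399 to 557 CPM in the control somata (median 474) and from 539 to 601 CPM in the stretched ones (median 563) and was higher too (log2 fold change 0.26, SE 0.08, edgeR adjusted p = 0.0249). Gria1 and Gria2 are the usual partners of hippocampal AMPA receptors. Gria3 (log2 fold change 0.26, edgeR adjusted p = 0.193) and Gria4 (log2 fold change -0.07, edgeR adjusted p = 0.717) did not pass.

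The only NMDA gene called was Grin3a, whose product lowers calcium entry through juvenile NMDA receptors. Grin3a ranged from 12.5 to 19.5 CPM in the control somata (median 16.2) and from 13.4 to 48.0 CPM in the stretched ones (median 28.1), so that the groups overlapped although the stretched median was above every control (log2 fold change 0.84, SE 0.29, edgeR adjusted p = 0.0466). Grin2b and Grin2a, the main glutamate-binding NMDA subunits, did not pass in this fit but did with the set as a covariate. Grin2b ranged from 228 to 389.8 CPM in the control somata (median 263) and from 284 to 399 CPM in the stretched ones (median 349) (log2 fold change 0.32, edgeR adjusted p = 0.0722; 0.0186 with the set as a covariate). Grin2a ranged from 51.9 to 106 CPM in the control somata (median 71.7) and from 70.2 to 109 CPM in the stretched ones (median 90.6) (log2 fold change 0.30, edgeR adjusted p = 0.166; 0.0316 with the set as a covariate). Of the kainate genes, the low-abundance Grik5, a high-affinity subunit that needs a partner subunit to form a channel, was lower after stretch (log2 fold change -0.78, SE 0.22, edgeR adjusted p = 0.0192). Grik5 ranged from 2.20 to 5.95 CPM in the control somata (median 4.73) and from 2.41 to 2.83 CPM in the stretched ones (median 2.69), and the lowest value of all was a control library. Grik2, a subunit able to form channels alone, ranged from 43.4 to 73.4 CPM in the control somata (median 55.5) and from 55.9 to 82.3 CPM in the stretched ones (median 72.8) and did not pass (log2 fold change 0.33, edgeR adjusted p = 0.0558; 0.0376 with the set as a covariate). Grid1, a delta receptor gene, ranged from 10.1 to 12.5 CPM in the control somata (median 10.5) and from 9.00 to 12.6 CPM in the stretched ones (median 9.57) and did not pass (log2 fold change -0.11, edgeR adjusted p = 0.521). The groups overlapped through stretched replicate 4 alone (12.6 CPM), since the next highest stretched library, at 9.98 CPM, lay below every control.

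Of the metabotropic genes, Grm7 encodes a presynaptic autoreceptor of low glutamate affinity. Grm7 ranged from 58.6 to 121 CPM in the control somata (median 64.0) and from 100.1 to 116 CPM in the stretched ones (median 106) and was higher after stretch (log2 fold change 0.53, SE 0.15, edgeR adjusted p = 0.0211). 5 of the 6 control libraries lay below every stretched library. Grm5, of group I, ranged from 244 to 507 CPM in the control somata (median 289.8) and from 348 to 514 CPM in the stretched ones (median 427) and did not pass (log2 fold change 0.43, edgeR adjusted p = 0.0547; 0.0183 with the set as a covariate). Grm2, a presynaptic group II receptor, ranged from 22.1 to 53.1 CPM in the control somata (median 28.8) and from 32.6 to 52.2 CPM in the stretched ones (median 43.5) and did not pass (log2 fold change 0.44, edgeR adjusted p = 0.0842; 0.0195 with the set as a covariate).

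For the GABA-A alpha subunits, Gabra3 was the only called member whose groups did not overlap, ranging from 18.6 to 29.2 CPM in the control somata (median 26.5) and from 30.1 to 38.7 CPM in the stretched ones (median 32.8) (log2 fold change 0.40, SE 0.12, edgeR adjusted p = 0.0241). Of all 15632 tested genes, 1.31% had every stretched soma library above every control. Gabra5, the most abundant per kb, ranged from 222 to 360.5 CPM in the control somata (median 272) and from 226 to 293 CPM in the stretched ones (median 258) and did not pass (log2 fold change -0.13, edgeR adjusted p = 0.437). Gabrb2, a beta subunit common in adult forebrain, ranged from 69.7 to 126 CPM in the control somata (median 76.3) and from 105 to 142 CPM in the stretched ones (median 115) and was higher (log2 fold change 0.50, SE 0.14, edgeR adjusted p = 0.0165). Gabrb1, also a beta subunit, ranged from 142 to 190.5 CPM in the control somata (median 171) and from 150.2 to 178 CPM in the stretched ones (median 166) and did not pass (log2 fold change -0.03, edgeR adjusted p = 0.824), with medians nearly level.

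Gabrd, the subunit of extrasynaptic tonic receptors, was lower (log2 fold change -0.50, SE 0.17, edgeR adjusted p = 0.0391). Gabrd ranged from 5.76 to 8.53 CPM in the control somata (median 7.69) and from 3.62 to 6.18 CPM in the stretched ones (median 5.48), so its groups overlapped slightly. Gabrr1, a rho subunit best known from retina, was near the detection limit and ranged from 0.251 to 1.62 CPM in the control somata (median 0.722) and from 0.312 to 1.19 CPM in the stretched ones (median 0.595) (log2 fold change -0.24, edgeR adjusted p = 0.733). For GABA-B, the ligand-binding Gabbr1 was higher (log2 fold change 0.40, SE 0.12, edgeR adjusted p = 0.0238), ranging from 167 to 302 CPM in the control somata (median 216) and from 262 to 315 CPM in the stretched ones (median 289.9). Its partner Gabbr2 ranged from 41.9 to 55.4 CPM in the control somata (median 51.7) and from 35.5 to 49.6 CPM in the stretched ones (median 43.7) and did not pass (log2 fold change -0.22, edgeR adjusted p = 0.11). Gabbr1 made up 82.2% ± 3.60 of the per-kb GABA-B level in control and 88.0% ± 1.35 in stretched somata, a description with no test.

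Many GABA-A genes lie in clusters (positions in GRCm38), so that called and uncalled members were neighbours. On chromosome 11, Gabrb2 (ENSMUSG00000007653, 42419757 to 42629028, plus strand) was called higher and its neighbour Gabra6 was too low to test. On chromosome 7, Gabra5 (ENSMUSG00000055078, 57407672 to 57510059, minus strand) and Gabrg3 (ENSMUSG00000055026, 56716465 to 57387188, minus strand) did not pass. The span of Gabra5 overlaps that of a gene on the other strand, and whether strand was used in counting is not given in the sources used here, so its values are uncertain where exons meet. Gabra3 lies on chromosome X (ENSMUSG00000031343, 72432681 to 72656848, minus strand) between Gabre and Gabrq, both too low to test. The other called genes are scattered: Gria1 on chromosome 11 (ENSMUSG00000020524, 57011387 to 57330244, plus strand), Gria2 on 3 (ENSMUSG00000033981, 80681450 to 80802835, minus strand), Grin3a on 4 (ENSMUSG00000039579, 49661611 to 49845744, minus strand), Grik5 on 7 (ENSMUSG00000003378, 25009849 to 25072346, minus strand), Grm7 on 6 (ENSMUSG00000056755, 110645581 to 111567230, plus strand), Gabrd on 4 (ENSMUSG00000029054, 155384980 to 155398112, minus strand) and Gabbr1 on 17 (ENSMUSG00000024462, 37045966 to 37075067, plus strand).

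**Figure D2:**
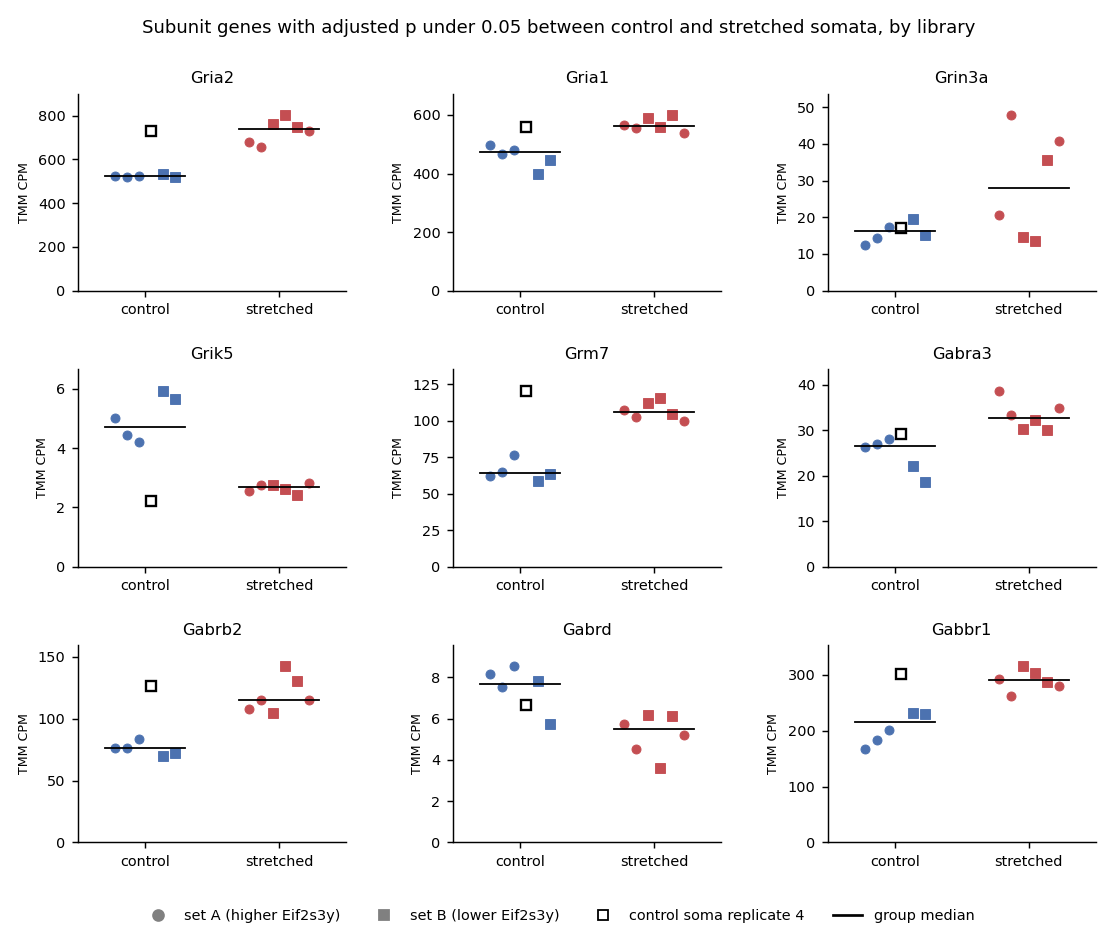
TMM-scaled CPM of 9 of the 12 called members in each of the 12 soma libraries, control and stretched side by side, with a line at the median. Circles are the libraries of set A and squares those of set B (sets by Eif2s3y level), with control soma replicate 4 as an open square. Gabra3 alone shows no overlap, and the open square lies among the stretched libraries for most genes.

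Control soma replicate 4 stood apart from the other 5 control libraries for these genes. It lay at or above the lowest stretched library for 9 of the 10 members called higher (all but Gabra3), while the other 5 controls lay below every stretched library for 9 of 10 (all but Grin3a). Of all tested genes, 12.3% had every stretched library above those 5 controls, and members already called higher are more apt to show such a separation, so these counts are a description only. Gria2, for example, measured 729 CPM there and between 520.0 and 533 CPM in the other controls. Without that library, 14 members were higher and 3 lower, or 36.8% and 7.89% of the 38, beside 18.2% and 20.1% of all tested genes. 11 of the 12 calls remained, Grin3a no longer passed (edgeR adjusted p = 0.0614), and Gabbr2, Grik2, Grin2a, Grin2b, Grm2 and Grm5 passed. Gabbr2 was the added one in the lower direction (log2 fold change -0.28, edgeR adjusted p = 0.0216). Gria2, Grm7 and Gabrb2 passed each of 12 refits, every soma library being dropped once, with adjusted p of at most 0.0485. Gabra3 missed only without stretched replicate 1 (edgeR adjusted p = 0.0629) and Grik5 only without control replicate 5 (adjusted p = 0.0535). Gabbr1 missed without control replicates 1 or 2 (up to 0.0543) and Gria1 without control or stretched replicate 6 (up to 0.0579). Calls for Gabrd and Grin3a were lost in 8 and 10 of these refits, with edgeR adjusted p of at most 0.0818 and 0.104. The count of called members fell from 12 to 7 without control replicates 1, 2 or 5, and to 8 without control replicates 3 or 6 or stretched replicates 1 or 6. Calls over all genes fell as well, from 3929 of 15632 to 2666 of 15876, 2762 of 15825 and 2788 of 15874 without control replicates 1, 2 and 5. They were 3531 of 15772 and 2865 of 15888 without control replicates 3 and 6, and 2855 of 15852 and 2779 of 15868 without stretched replicates 1 and 6. Within set B, a group of 6 soma libraries described below that holds control replicate 4, 0 members passed, as did 0% of 15718 genes, and 17 passed there without that library, beside 27.5% of 16237 genes.

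The receptor genes are long, and fold changes in these libraries moved with transcript length. The longest transcript of the tested members had a median of 5339.5 bases, compared with 3304 over all tested genes. The 2931 other genes at least as long as that median had a median log2 fold change of 0.23, and 22.7% of them were called higher and 3.89% lower, shares near those of the members. Over the 38 members the fold change had a Spearman rho of 0.31 with length and -0.44 with GC content, which describes genes that share libraries. With smooth offsets for length and GC in the same edgeR fit, 2 members were higher and 3 lower (5.26% and 7.89%), next to 6.01% and 9.3% of all genes, and the members' median log2 fold change was 0.02. Gabrb2 (log2 fold change 0.37, edgeR adjusted p = 0.0405), Grm7 (0.40, adjusted p = 0.047) and Grik5 (-0.70, adjusted p = 0.0446) kept their calls under these offsets. Gabbr2 (-0.39, adjusted p = 0.027) and Gabrb1 (-0.29, adjusted p = 0.0282) passed in the lower direction. Gria2 went to 0.03 (adjusted p = 0.806) and Gria1 to 0.03 (adjusted p = 0.773).

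**Figure D3:**
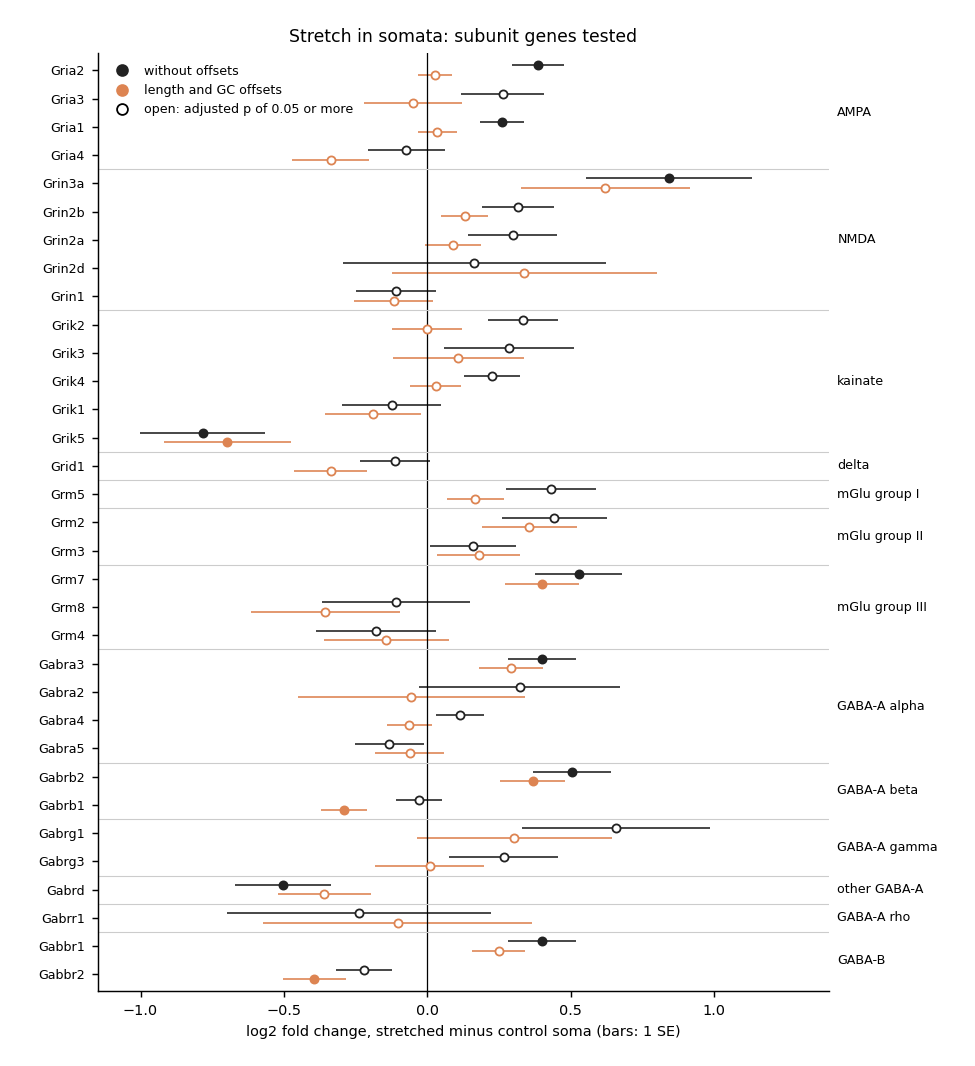
Log2 fold change (stretched minus control somata, bars ± 1 SE) of 33 of the 38 tested members by role class, in black without and in orange with length and GC offsets; filled points have an edgeR adjusted p under 0.05. The orange points sit lower than the black ones for most members (medians over all 38 are 0.02 and 0.26), and Gabrb2, Grm7 and Grik5 are filled in both.

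Gabra2, an alpha subunit of synapses along the axon initial segment, showed a wide spread between soma libraries, and the spread followed a split other than stretch. The Y-linked gene Eif2s3y parts the soma libraries into set A (24.7 to 28.7 CPM; control replicates 1, 2 and 3, stretched replicates 1, 2 and 8) and set B (5.39 to 13.2 CPM; control 4, 5 and 6, stretched 4, 5 and 6), so each set holds 3 libraries of each condition. Gabra2 measured 514, 530.5 and 564 CPM in control set A and 215, 219 and 271 CPM in control set B. The stretched libraries had 655, 686 and 724 CPM in set A and 252, 269.7 and 307 CPM in set B. All 6 libraries of set A thus exceeded all 6 of set B, with A above B by 1.25 on the log2 scale (SE 0.08, edgeR adjusted p = 2.88e-08), 5th by p among the 15632 genes. This split was looked at after an earlier analysis of these data had shown it, and 13.3% of all genes differed between the sets.

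Stretch itself did not pass for Gabra2 over the pooled libraries (log2 fold change 0.32, edgeR adjusted p = 0.525), where the sets widen the spread. It passed within set A (0.41, edgeR adjusted p = 0.00502) and over all 12 with the set as a covariate (0.30, adjusted p = 0.00857). In set B with all 6 libraries, 0.23 did not pass (adjusted p = 0.355). There it passed only without control replicate 4 (0.33, adjusted p = 0.0271), in a fit added after seeing the data. With length and GC offsets over the pooled libraries it was -0.06 (adjusted p = 0.942). The difference in response between the sets was 0.13 (SE 0.15, edgeR adjusted p = 0.838), and over all genes 0 of 15632 passed for such a difference, with 1169 at an unadjusted p under 0.05.

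Gabra2 lies on chromosome 5 (GRCm38, 70957597 to 71095849, minus strand) in a cluster with Gabrg1, Gabra4 and Gabrb1, and for its neighbours the difference between the sets did not pass. Gabra4 differed between the sets by 0.00 (edgeR adjusted p = 0.994), Gabrb1 by -0.11 (adjusted p = 0.391) and Gabrg1 by 0.56 (adjusted p = 0.227). Gabra4 (71569749 to 71658308, minus strand) and Gabrb1 (71658113 to 72149037, plus strand) overlap at their 5′ ends, and since strand use in the counting is not given in the sources used here, their counts are uncertain there. In all, 7 of the 38 members differed between the sets. Besides Gabra2, Gria3 (0.42, edgeR adjusted p = 0.00866) and Grm3 (0.42, 0.0168) were higher in set A. Grin1 (-0.46, edgeR adjusted p = 0.00106), Grin2a (-0.46, 0.00646), Grin2b (-0.30, 0.0452) and Gabbr1 (-0.29, 0.04) were lower in set A. The astrocyte markers moved with the sets, summing to between 10725.5 and 14076 CPM in set A and to between 5120.5 and 6309.6 CPM in set B; their part in these differences was not tested.

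**Figure D4:**
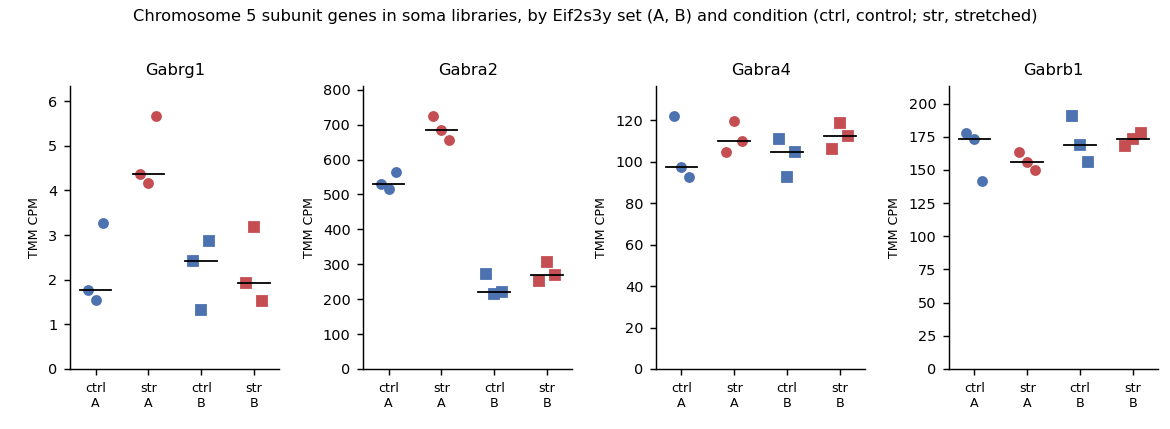
TMM-scaled CPM of the 4 genes of the GABA-A cluster on chromosome 5 in the 12 soma libraries, by set and condition. Gabra2 lies between 514 and 724 in set A and between 215 and 307 in set B, while Gabra4 and Gabrb1 overlap between the sets.

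Genes that assemble, anchor and supply these receptors were counted from lists in the same soma fit, with edgeR adjusted p throughout; of all tested genes 11.2% were higher and 13.9% lower. In the GABA supply and uptake list 4 of 6 were higher and 0 lower, also without control replicate 4 and with length and GC offsets. Those were Abat, which degrades GABA (log2 fold change 0.65, SE 0.12, adjusted p = 0.00456; 90.0 ± 19.1 CPM in control and 141 ± 10.3 in stretched somata, SD, n = 6), the transporter Slc6a11 (log2 fold change 0.36, SE 0.07, adjusted p = 0.00629), the vesicular transporter Slc32a1 (log2 fold change 0.80, SE 0.21, adjusted p = 0.0138) and the GABA-making enzyme Gad1 (log2 fold change 0.50, SE 0.13, adjusted p = 0.0154). The list's median log2 fold change was 0.52, with Gad2 at 0.01 (adjusted p = 0.966). Glutamate supply and uptake had 0 of 8 called, with a median of 0.06.

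Of 15 AMPA receptor auxiliary proteins, 3 were higher and 2 lower (median log2 fold change -0.06). Cnih2, an export factor and channel modulator of AMPA receptors, fell the most (log2 fold change -2.03, SE 0.35, adjusted p = 0.00433), from 159 ± 62.9 to 38.8 ± 20.9 CPM (SD, n = 6), and Cpt1c was also lower (log2 fold change -0.25, SE 0.08, adjusted p = 0.0373). Higher were Frrs1l, needed for AMPA receptor assembly (log2 fold change 0.30, SE 0.08, adjusted p = 0.0171), the auxiliary subunit Shisa6 (log2 fold change 0.61, SE 0.18, adjusted p = 0.0261) and the TARP gene Cacng7 (log2 fold change 1.14, SE 0.35, adjusted p = 0.0281). Of 10 genes for GABA-A anchoring and assembly, Gphn, the scaffold gephyrin, was higher (log2 fold change 0.31, SE 0.09, adjusted p = 0.0236), while Gabarap (log2 fold change -0.51, SE 0.12, adjusted p = 0.00877) and Gabarapl1 (log2 fold change -0.26, SE 0.08, adjusted p = 0.0211), which traffic receptors and serve autophagy, were lower. In the GABA-B auxiliary list Kctd12 was higher (0.39, adjusted p = 0.0359) and Kctd16 lower (-0.39, adjusted p = 0.0161) among 3 genes. No call was made among 5 kainate and delta receptor partners, 6 metabotropic receptor partners (Homer1 and others) and 2 chloride transporters, although Slc12a5 went from 14.7 ± 4.60 to 29.7 ± 18.2 CPM (adjusted p = 0.0746). With offsets, the AMPA auxiliary calls were Cacng7 (1.35, adjusted p = 0.024) and Cacng8 (0.79, adjusted p = 0.0222; without offsets 0.29, adjusted p = 0.148) in the higher direction and Cnih2 in the lower. Frrs1l (-0.00, adjusted p = 0.993), Shisa6 (0.39, adjusted p = 0.148) and Cpt1c (-0.18, adjusted p = 0.123) no longer passed. Gphn (0.26, adjusted p = 0.0514), Gabarap (-0.20, adjusted p = 0.0716), Gabarapl1 (-0.00, adjusted p = 0.978) and Kctd12 (0.13, adjusted p = 0.406) did not pass with offsets, while Kctd16 stayed lower (-0.33, adjusted p = 0.0434).

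Cell type markers were counted beside these results, against the same 11.2% and 13.9% of all tested genes. Of 8 neuronal markers 1 was higher and 4 lower, of 6 glutamatergic markers 0 and 1, of 8 GABAergic markers 2 and 1, and of 8 astrocyte markers 0 and 0. Of 7 microglial markers 0 were higher and 2 lower, their sum going from 38.1 to 75.7 CPM in control to 27.9 to 35.9 CPM in stretched somata. Endothelial and mural markers had 1 higher of 5, fibroblast markers 1 lower of 4, the oligodendrocyte lineage 0 called of 5 tested, and the nuclear or somatodendritic list 1 higher and 2 lower of 8. The GABAergic list shares its supply genes with the list above. Whether these shifts carry any of the receptor differences was not tested.

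In axonal libraries the receptor genes were detected unevenly. Counts were found for 10, 8, 14, 27 and 9 of the 47 members in control axon replicates 1, 2, 3, 5 and 7, and for 7, 8, 16, 13, 15 and 22 in stretched axon replicates 1, 2, 4, 5, 6 and 8. The axonal libraries held counts for 4263 to 10242 genes, and a gene missing from an axonal library is not shown to be absent from axons. Members above 100 CPM in somata were detected in a median of 63.6% of cases per axonal library (11 members), compared with 76.1% of the 2367 genes at that level. Between 10 and 100 CPM the shares were 23.5% of 17 members and 34.9% of 7162 genes, and between 1 and 10 CPM 14.3% of 7 members and 11.2% of 4387 genes. Below 1 CPM the medians were 0% of 12 members and 4.61% of 18954 genes. By soma level, then, detection of the receptor genes was lower than or near that of other genes; no test was made.

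Only 9 members had a count in at least 6 of the 11 axonal libraries, among them Gabra2, Gria2, Grin2b, Gria1, Grm5, Gabra5 and Grin2a. Gabra2 was counted in all 11, with 112, 1109, 454, 174 and 34.7 CPM in control replicates 1, 2, 3, 5 and 7 and 4.54, 594, 230.1, 202, 0.312 and 141 CPM in stretched replicates 1, 2, 4, 5, 6 and 8. Gria2, also found in all 11, measured 7.96, 40.8, 424, 404 and 102 CPM in the control axons and 9.11, 0.0611, 345, 7.05, 176 and 306 CPM in the stretched ones, libraries in the same order. Both genes spanned more than 100-fold within the stretched group, and neither separated the conditions. Gria1 had 0, 114, 407, 459 and 61.1 CPM in control and 35.7, 0, 262, 69.9, 0 and 198 CPM in stretched axons. Grin2b, in 10 libraries, had 0.556, 50.1, 143, 75.9 and 43.6 CPM in control and 0, 42.0, 191, 142, 11.1 and 19.0 CPM in stretched axons. For Grin2a the values were 0, 0, 3.22, 142 and 37.9 CPM in control and 0, 0, 1.71, 0, 166 and 79.5 CPM in stretched axons. Presynaptic NMDA receptors with these subunits are known from developing axons. Here Grin2a ran from no count to above 100 CPM in both conditions. Grin2b did so in stretched axons, and ran from 0.556 to 143 CPM in control axons. The obligatory Grin1 was counted in 3 of the 11 axonal libraries. Whether these counts came from axons or from other compartments was not tested.

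Grm5 gave 50.0, 0, 0.0441, 107 and 0 CPM in control and 0, 0.0611, 0.125, 112, 238 and 1.06 CPM in stretched axons. Gabra5 gave 0, 0, 0, 157 and 115 CPM in control and 0, 35.4, 732, 35.2, 336 and 9.31 CPM in stretched axons. Both genes had at least 1 library at or near 0 and at least 1 above 50 CPM in each condition. A further 27 members had counts in 1 to 5 axonal libraries, and some of these were high in a single library. Gabrr1, under 1 CPM on average in somata, reached 372.6 CPM in control axon replicate 2 and had no count in the other 10 axonal libraries. Gabrg3 reached 255.6 CPM in control axon replicate 1 and otherwise had 1 count in stretched replicate 1. The 11 members without any axonal count were Gabra6, Gabrd, Gabre, Gabrp, Gabrq, Gabrr2, Gabrr3, Grin2c, Grm4, Grm6 and Grm8, of which Gabrd, Grm4 and Grm8 were above 1 CPM in somata.

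**Figure D5:**
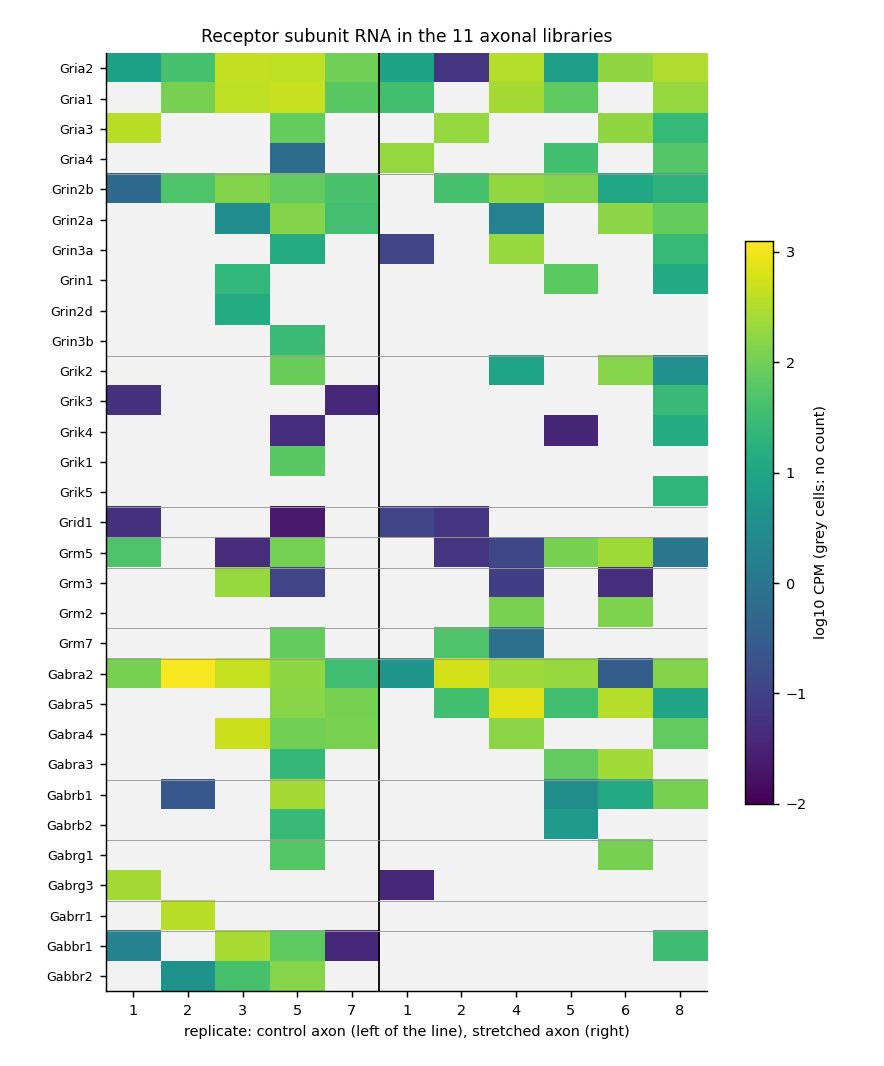
Level (log10 CPM, colour scale) of 31 of the 36 members with any axonal count in each of the 11 axonal libraries, grey where there was no count. Gabra2 and Gria2 are filled across all 11 libraries, and most other genes show isolated bright cells, such as Gabrr1 in control replicate 2.

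Stretch was then compared within axons. Of the 11 members with enough axonal counts to test (among them Gabra2, Gabra4, Gabra5, Gria1, Gria2, Gria3, Grin2a, Grin2b and Grm5), 0 passed (edgeR adjusted p = 1.00 for each), and Gabra2 had an unadjusted p of 0.512. Over all 4947 genes tested there, 0 were called (0%), with 46 at an unadjusted p under 0.05, and DESeq2 called 18 genes, 0 of them members. The biological coefficient of variation was 2.39 between axonal libraries and 0.24 between soma libraries, so differences of the size seen in somata would lie within the spread between axonal libraries. In 1 edgeR fit of all 4 groups, which share an estimate of the spread there, 13 of 38 members passed for stretch in axons, beside 24% of 16113 genes, and 0 for stretch in somata, as did 0% of genes. Whether the response differs between axon and soma was not tested.

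Axons were last set against somata of the same condition, with the soma libraries already used above. In control cultures 11 of 38 tested members were lower in axons and 0 higher (28.9%, against 34.4% of 14728 genes called lower), among them Gabrd, Gria4, Grid1, Grik3, Grik4, Grik5, Grm2, Grm4 and Grm8. In stretched cultures 9 of 36 were lower and 0 higher (25.0%, against 28.4% of 14466 genes): Gabbr2, Gabrb2, Gabrd, Gabrg3, Grid1, Grik1, Grm3, Grm4 and Grm8. The members' shares were thus near those of all genes. Gabrd, Grid1, Grm4 and Grm8 were called in both conditions. For 10 of the 11 and 8 of the 9, no axonal library of the condition rose above the floor of 3 counts. Against that floor, averaged over the libraries, counts of Grm2 were at least 246-fold lower in control axons than in control somata. This fold and those below take only depth into account. Of genes between 10 and 100 CPM in somata, a median of 34.9% were detected per axonal library, so the folds do not bound RNA levels in axons. Gabrd was at least 57.5-fold lower in control axons and at least 38-fold lower in stretched axons, and Grm4 at least 52.9-fold and at least 43.8-fold lower. Grm8, a presynaptic group III receptor of low level, was at least 9.04-fold and at least 7.85-fold lower. Grik5 was at least 35.5-fold lower in control axons, and Gabbr2 at least 314-fold and Grik1 at least 78.6-fold lower in stretched axons. Several of these genes had high counts in the axons of the other condition: Grm2 reached 119 and 128 CPM in stretched axon replicates 4 and 6, and Gabbr2 147 CPM in control replicate 5. The calls depended on the libraries with most members detected, since 21 members were lower in control axons without control axon replicate 5 (52.4% of 15205 genes were) and 17 in stretched axons without stretched axon replicate 8 (42.3% of 15010.0 genes). The most abundant soma genes, among them Gria1 (edgeR adjusted p = 0.627 in control and 0.257 in stretched cultures), Gria2 (0.211 and 0.173) and Gabra2 (0.878 and 0.369), did not pass in either condition, which does not show equal levels.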

How the data were processed

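RNA of hippocampal cultures was read out with a low-input poly(A) cDNA kit that carries unique molecular identifiers, per the labels' protocols; whether identifiers were collapsed, and whether strand was used in counting, is not given in the sources used here. The authors deposited raw gene counts per library; fastp 0.20.1, FastQC 0.11.9, MultiQC 1.12, STAR 2.7.08a, HTSeq 0.13.5 and mm10 are named in the submitters' processing notes. Rows for ambiguous, unaligned and multi-mapped reads were left out, and 55141 of 55487 IDs had a symbol. The 12 soma and 11 axonal libraries held no identical pair (0 pairs).

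Comparisons took in only the libraries of the 2 groups compared and used edgeR 4.0.16 in R 4.3.3 (filterByExpr, TMM, robust quasi-likelihood test, Benjamini-Hochberg adjustment over all tested genes, threshold 0.05); standard errors are |log2 fold change| over the square root of F. Soma values are TMM-scaled CPM, and axonal values and list sums plain CPM. Tests were tried on simulated counts. Alternatives were DESeq2 1.42.0, total counts, no filter, a replicate block, left-out libraries, sets, length and GC offsets (mgcv 1.9.3) and 1 fit of all groups. Members named with values were those called in somata, the highest soma gene of each role class and those counted in at least 6 axonal libraries; genes of the other lists were shown by smallest p, and further members were named after their values were seen. The members, lists and sets were chosen with earlier results of these data known. 1 metabotropic partner, Tamalin, had no match. Some members and list genes are counted but not reported here by name, in text or figures.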

Additional observations from a re-analysis of the deposited data

Results flagged for a closer look

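Of 71 groups of library values, 20 had a highest or lowest library whose gap to the next took up more of the group's range, on the log2(CPM + 1) scale, than Dixon's 95% limit allows; chance alone flags about 1 in 20 groups. That rate does not hold for 9 of the 20, where a single library of the group had any count and the limit is passed by construction. In somata, control replicate 4 was the extreme library 6 times. It was the highest of 6 for Gria2 (728.6 CPM, next 533 CPM), Grin2b (389.8, next 275), Grm5 (507, next 311), Grm7 (120.7, next 76.3) and Gabrb2 (126, next 83.7), and the lowest for Grik5 (2.20, next 4.22). Grid1 was extreme in control soma replicate 6 (12.5 CPM, next 10.9) and in stretched soma replicate 4 (12.6 CPM, next 9.98).

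In axons the extreme library was most often control replicate 5, the one with most receptor genes detected. There Gabrb1 had 261.8 CPM (next 0.249), and the other 4 control axons had no count of Grik2 (92.0 CPM), Grm7 (79.3), Gabrb2 (27.2), Gabra3 (24.9) or Grin3a (13.5). Gabrr1 stood out in control axon replicate 2 (372.6 CPM, others 0), and Grin2b was lowest in control axon replicate 1 (0.556 CPM, next 43.6). Among stretched axons, replicate 8 alone had counts of Gabbr1 (32.6 CPM) and Grik5 (22.6). Replicate 5 alone had Gabrb2 (5.75 CPM), and replicate 2 led for Grm7 (50.2 CPM, next 0.751).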

How the results depend on the processing

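The number of members called for stretch in somata was 12, beside 3929 of 15632 genes. It was 0 within set B only (0 of 15718 genes), 5 with length and GC offsets (2391 of 15619), 2 with a replicate block and these offsets (1895 of 15571), and 0 in 1 fit of all 4 groups (0 of 16113). Leaving out each library gave 7 to 17 members and 2666 to 6072 genes. It was 14 with DESeq2 (4772 of 15632 genes), 14 with total counts (4005 of 15632), 10 without a filter (3030 of 32870) and 9 with the replicate block alone (3227 of 15584). With the set as a covariate it was 18 (5304 of 15632), and 18 without both libraries numbered 4 (5667 of 15688). It was 17 in set A only (4637 of 15867) and 17 in set B without control replicate 4 (4462 of 16237). For stretch in axons 0 were called, 13 in the fit of all 4 groups (3870 of 16113 genes), and 0 with the block or any library left out. Axon against soma gave 11 lower in control cultures, beside 5070 of 14728 genes. With the block it gave 12 (5029 of 14345 genes), and 10 to 21 leaving out libraries (4449 to 7968 genes). In stretched cultures it gave 9, beside 4112 of 14466 genes. There it was 15 with DESeq2 (4566 genes), 15 without a filter (10805 of 31176), 20 with the block (7676) and 8 to 17 leaving out libraries (4075 to 6346). Deviations of same-numbered soma libraries had a mean correlation of 0.226 over 5 pairs (lowest 0.00291), compared with -0.036 between differently numbered ones. Each number shared by both conditions also fell in the same set. The main fit did not read the numbers as pairs, the replicate block above did, and whether they mark pairs was not tested. With offsets the log2 fold change turned to -0.055 for Gabra2 and -0.0016 for Grik2; with block and offsets to -0.067 and -0.049, and to -0.017 for Gria2. It turned to 0.13 for Gabra5 and 0.36 for Gabrr1 in set A, and to 0.00359 for Grid1 in the fit of all 4 groups. Gabrb1 turned to 0.0128 with total counts, 0.00478 without both libraries numbered 4, 0.00882 in set B, 0.0714 in set B without control replicate 4 and 0.088 in the fit of all 4 groups. Leaving out libraries gave -0.073 to 0.00278 for Gabrb1 and -0.49 to 0.11 for Gabrr1. The cause was not tested. Set B without control replicate 4, the fits of sets against each other and the list counts with offsets were added after seeing the data. Axonal comparisons rest on few detections, since 38 of 47 members had counts in fewer than 6 of 11 libraries, at total counts whose range includes that of the somata.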
